A study of Mus musculus with 5 samples.

Results

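The 40 genes described here build the mitotic spindle, attach chromosomes to it and take the cell out of mitosis. They were chosen by name from the 31053 genes listed in droplet-based single-cell RNA counts of mouse liver, and all 40 were found in each of 5 libraries. By role they fall into 10 centromere proteins (CENP genes), 4 outer kinetochore genes of the NDC80 complex, 5 spindle checkpoint genes, 4 genes of the chromosomal passenger complex, 6 spindle assembly genes, 5 genes of the anaphase-promoting complex (APC/C) pathway and mitotic exit, 4 genes of the spindle midzone and cytokinesis, and 2 chromosome structure genes. All mice were of the C57BL/6J strain. The libraries hold liver cells of unoperated pups on postnatal day 14 (P14), of unoperated adults (the adult control), and of adults 24 h, 48 h or 96 h after 2/3 partial hepatectomy at 8 weeks of age, which removes most of the liver and is followed by regrowth. Cells were freed by a 2-step perfusion and passed through a dead cell removal kit. The labels contradict each other on the adult control, because the treatment protocol counts that library among the operated mice whereas its title, source and age do not, and it is used here as unoperated. How many mice went into a library, and of which sex, is not in the labels. There was 1 library per group, so no difference has a replicate check, no p-value is given, and every interval below is an exact 95% interval of counting error only. The adult control also carries another lane code (L002) than the other libraries (L001), so that a batch behind that code and the group cannot be told apart.

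A dividing cell copies its DNA in S phase and then builds the machinery of mitosis. A kinetochore forms on the centromere of each chromosome, binds spindle microtubules through the NDC80 complex, and keeps the spindle checkpoint active until every chromosome is attached. The APC/C then marks its substrates for destruction, the chromosomes separate, and the midzone of the spindle places the furrow at which the cell divides. Hepatocytes of adult liver rarely divide, enter the cycle after partial hepatectomy, and often separate their chromosomes without dividing the cell, which leaves binucleate or polyploid hepatocytes.

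Hepatocytes were barcodes with at least 5000 unique molecular identifiers (UMIs, each standing for 1 captured transcript), 10 to 30% mitochondrial UMIs, and at least 1% of UMIs from Alb, Apoa1 and Ttr, which encode plasma proteins made by hepatocytes. This rule took 925 barcodes in the adult control and, in time order, 1170 (24 h), 719 (48 h) and 771 (96 h), with 2106 at P14, at median depths between 18527 and 38923 UMIs. Between 0 and 3 of them per library had a barcode that also occurred among the hepatocytes of another library. All 6 hepatocyte markers had UMIs in every library. Neutrophil markers moved with the members: the 7 markers, all with UMIs in every library, summed to 190 CPM at 48 h and to 101 CPM at 24 h, against 11.3 to 27.6 CPM elsewhere, and 236 of the 719 hepatocyte barcodes at 48 h had at least 3 of them. Erythroid markers summed to more, at 680 CPM at 48 h, 628 CPM in the adult control and 451 CPM at 24 h. They were at 298 CPM at 96 h and 106 CPM at P14. At 48 h, 537 of the 719 hepatocyte barcodes had at least 3 erythroid markers, against 513 of 925 in the adult control. The part of erythroid RNA in hepatocytes was not tested. Levels are given as CPM, counts scaled to a total of 1000000 UMIs outside the 13 mitochondrial genes, over all hepatocyte barcodes of a library, and were not divided by gene length, because a UMI stands for a transcript and not for a fragment. A sum over barcodes cannot tell a larger number of dividing cells from more transcript per dividing cell. Free RNA was sampled from near-empty droplets, the barcodes ranked after the first 20000 and up to 60000 by depth. It held 157 to 1552 CPM of the members, between its lowest value in the adult control and its highest at 48 h as in hepatocytes, but the amount was small: between 0.207 and 0.542 member UMIs per droplet, or between 0.726% (48 h) and 8.92% (adult control) of the member UMIs of an average hepatocyte barcode.

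The members as a group were lowest in the adult control and highest at 48 h. Their summed level in hepatocytes was 162 CPM in the adult control, 876 CPM at 24 h, 2087 CPM at 48 h, 649 CPM at 96 h and 691 CPM at P14. The 48 h level was 12.9 times that of the adult control (95% interval 12.4 to 13.5), against 5.42 times at 24 h, 4.02 times at 96 h and 4.27 times at P14. In the adult control, 4 genes (Cks2, Bub3, Ccnf and Spc24) held 59.7% of the sum and 17 members were under 1 CPM, whereas at 48 h the same 4 genes held 14.0% and no member was under 1 CPM. All 40 members passed the filter used for the background, a mean of at least 1 CPM over the 5 libraries, which left 10959 genes. On a scale of log2((CPM + 1)/(CPM + 1)), 28 of 40 members were at least 4-fold higher than the adult control at 24 h, where 2.40% of the genes tested were. At 48 h the count was 35 of 40 against 2.64% of genes, at 96 h 20 of 40 against 0.830%, and at P14 26 of 40 against 2.66%. The median log2 ratio of the members was 2.63 at 24 h, 4.12 at 48 h, 2.05 at 96 h and 2.21 at P14, and the median over all genes tested lay between -0.22 and 0.05. These comparisons share the adult control library, and the added constant of 1 CPM understates the ratio of genes that are near 0 there. With 10 CPM added instead, the members at least 4-fold higher numbered 3 at 24 h, 21 at 48 h, 2 at 96 h and 3 at P14, where 54 (0.493%), 79 (0.721%), 11 and 82 (0.748%) of the same 10959 genes were. In barcodes with 10 to 20% mitochondrial UMIs the 96 h count was 7, against 1.51% of genes. Without the hepatocyte barcodes that had 3 or more neutrophil markers, 36 members were at least 4-fold higher at 48 h (2.61% of genes), 28 at 24 h (2.40%), 20 at 96 h (0.839%) and 26 at P14 (2.64%).

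**Figure D1:**
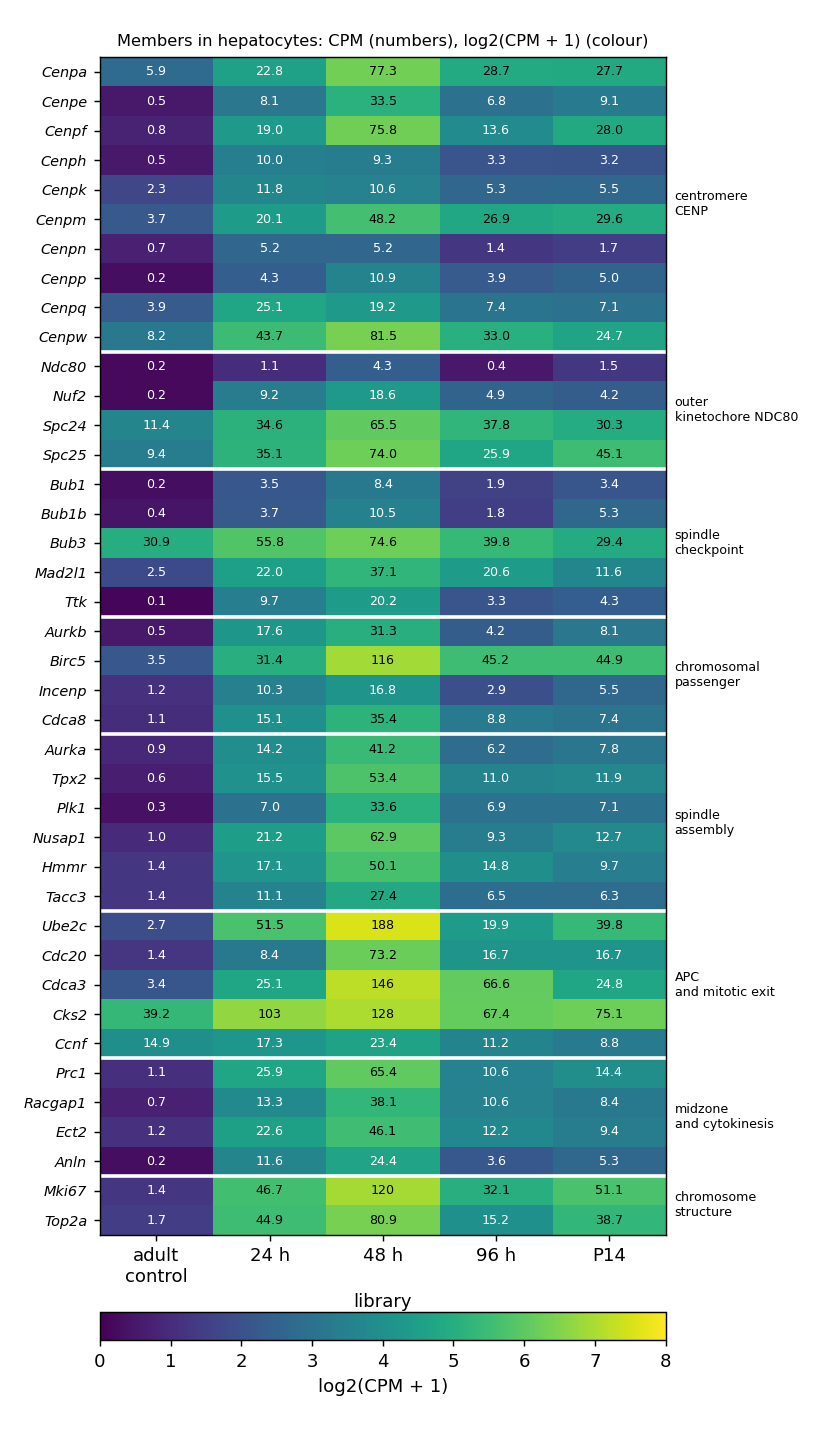
Level of each of the 40 members in hepatocytes of the 5 libraries, as CPM (numbers) and log2(CPM + 1) (colour), with the genes grouped by role. The 48 h column is the brightest for 37 members, Cenph, Cenpk and Cenpq are highest at 24 h, and Cks2, Bub3, Ccnf and Spc24 stand out in the adult control.

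Centromere proteins were the only one of the 8 roles with members highest at 24 h. Of the 10 CENP genes, 7 were at least 4-fold higher than the adult control after 24 h, 8 after 48 h, 4 after 96 h and 5 on P14. For these and the other roles below, the share over all genes tested was 2.40%, 2.64%, 0.830% and 2.66% in that order. Cenpw, part of the constitutive layer of proteins on centromeric chromatin, was at 8.19 CPM in the adult control and, in time order, 43.7 (24 h), 81.5 (48 h) and 33.0 (96 h), with 24.7 at P14. Cenpa, the histone H3 variant that marks the centromere, was at 5.93, 22.8, 77.3, 28.7 and 27.7 CPM in the same order. Both were highest at 48 h, Cenpw at 9.95 times (95% interval 8.20 to 12.2) and Cenpa at 13.04 times (10.4 to 16.6) the adult control. Cenpf, a large protein of the outer kinetochore that also binds dynein partners, was at 0.751 CPM in the adult control and, in time order, 19.0 (24 h), 75.8 (48 h) and 13.6 (96 h), with 28.0 at P14. The adult control value rests on 10 UMIs, and the 48 h level was 101 times as high (54.8 to 211).

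Cenph, Cenpk and Cenpq, 3 genes of the constitutive centromere-associated network that stays on chromatin through the cell cycle, had their highest level at 24 h. Cenpq was at 3.91 CPM in the adult control and, in time order, 25.1 (24 h), 19.2 (48 h) and 7.44 (96 h), with 7.09 at P14, and its 24 h level was 1.31 times that of 48 h (95% interval 1.141 to 1.493). For Cenpk and Cenph the 2 time points were close. Cenpk was at 2.25, 11.8, 10.6, 5.28 and 5.47 CPM in the same order, with a ratio of 24 h to 48 h of 1.11 (0.920 to 1.34). Cenph was at 0.451, 9.99, 9.26, 3.27 and 3.19 CPM, with a ratio of 1.08 (0.879 to 1.32). Cenpn, another gene of that network, was level between the same 2 libraries, at 5.23 CPM in each. The intervals of Cenpk, Cenph and Cenpn span equality, so that only for Cenpq was 24 h above 48 h beyond counting error. As a mean over barcodes the log2 ratio of 24 h to 48 h of Cenpk was -0.05, and in barcodes with 10 to 20% mitochondrial UMIs that of Cenph was -0.16, so that the order of these genes turned, whereas that of Cenpq stayed between 0.26 and 0.46 under every alternative run. Cenpm, whose protein sits with Cenph and Cenpk in one subcomplex, did not share this order, nor did Cenpp, a close partner of Cenpq, with 4.25 CPM at 24 h and 10.9 CPM at 48 h. Among genes of the network that are not members, named here after their values were seen, the values at 24 h and 48 h were 5.64 and 7.73 CPM for Cenpi, 2.255 and 3.12 CPM for Cenpo, 4.82 and 7.30 CPM for Cenpt and 13.4 and 22.2 CPM for Cenpl. Those of Cenpc1 were 5.94 and 7.73 CPM, and those of Cenpx 68.7 and 79.7 CPM. For Cenpu they were 9.94 and 8.83 CPM, and for Cenps 6.76 and 6.62 CPM. Cenpm was at 3.68 CPM in the adult control and, in time order, 20.1 (24 h), 48.2 (48 h) and 26.9 (96 h), with 29.6 at P14.

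Promoter sequence was looked at because many mitotic genes are known to carry a cell cycle homology region (CHR) near the start of transcription, which binds the DREAM and MuvB complexes, often beside CCAAT boxes bound by NF-Y. RefSeq promoter windows (GRCm38.p6, 250 bases before to 50 after the start) existed for 36 of the 40 members. TTTGAA or TTCGAA, the letters searched for the CHR, stood on either strand in 25 of 36 members (69.4%), in 32 of 63 other mitosis genes (50.8%) and in 3914 of 19407 genes of the table (20.2%). CCAAT stood on either strand in 28 of 36 members (77.8%), 54.0% of the other mitosis genes and 41.8% of all genes. Both kinds occurred together in 23 members (63.9%), against 31.7% and 8.24%. A match describes letters only, and the lack of one says nothing about a factor. The next 6 lines give the stretch from 180 bases before to 20 after the start, written 5′ to 3′ on the gene's strand, with matches on either strand in capitals. Ube2c (highest member), Cdc20 (lowest at 24 h relative to 48 h) and Cenpf are shown beside the 3 members that were highest at 24 h.
Ube2c: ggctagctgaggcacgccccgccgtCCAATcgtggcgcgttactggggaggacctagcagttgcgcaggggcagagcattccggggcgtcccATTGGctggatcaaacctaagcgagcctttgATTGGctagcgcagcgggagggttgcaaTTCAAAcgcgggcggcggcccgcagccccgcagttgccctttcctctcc
Cdc20: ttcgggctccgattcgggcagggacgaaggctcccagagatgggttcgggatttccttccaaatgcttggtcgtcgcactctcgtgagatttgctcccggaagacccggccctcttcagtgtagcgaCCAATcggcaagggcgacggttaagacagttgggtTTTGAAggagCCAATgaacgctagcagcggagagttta
Cenpf: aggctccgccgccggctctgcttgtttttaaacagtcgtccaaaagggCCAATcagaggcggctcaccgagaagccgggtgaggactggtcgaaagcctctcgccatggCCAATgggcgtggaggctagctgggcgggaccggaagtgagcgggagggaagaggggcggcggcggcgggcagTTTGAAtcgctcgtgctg
Cenpq: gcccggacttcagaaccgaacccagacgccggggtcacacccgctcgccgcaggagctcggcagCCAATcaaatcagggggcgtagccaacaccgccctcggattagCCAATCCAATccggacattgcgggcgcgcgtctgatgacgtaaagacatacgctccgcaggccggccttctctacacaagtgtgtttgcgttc
Cenpk: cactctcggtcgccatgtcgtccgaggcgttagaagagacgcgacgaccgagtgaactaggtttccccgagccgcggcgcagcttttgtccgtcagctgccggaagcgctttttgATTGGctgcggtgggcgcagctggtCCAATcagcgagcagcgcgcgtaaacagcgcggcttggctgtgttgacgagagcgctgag
Cenph: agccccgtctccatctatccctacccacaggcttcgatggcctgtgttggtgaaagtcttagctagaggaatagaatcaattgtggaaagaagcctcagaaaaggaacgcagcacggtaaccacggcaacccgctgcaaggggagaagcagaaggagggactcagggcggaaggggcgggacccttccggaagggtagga
The stretches lie at chr2:164769749-164769948 on the plus strand (Ube2c), chr4:118437324-118437523 on the minus strand (Cdc20), chr1:189688067-189688266 on the minus strand (Cenpf), chr17:40934555-40934754 on the minus strand (Cenpq), chr13:104228786-104228985 on the plus strand (Cenpk, the one of its 3 windows with the most matches) and chr13:100775880-100776079 on the minus strand (Cenph). Ube2c, Cdc20 and Cenpf each held a CHR match, which in Ube2c reads TTCAAA because it lies on the opposite strand. Cenpq, Cenpk and Cenph held none in any window, and the single CCAAT of Cenph starts 31 bases after the start, outside the printed stretch. Over all 36 members the median ratio of 24 h to 48 h was 0.396 for the 25 with a CHR match (range 0.115 to 0.999) and 0.494 for the 11 without (0.242 to 1.31). The 2 ranges overlapped over most of their length, and Birc5, Nusap1 and Tacc3, which were highest at 48 h, held no CHR match either.

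All 4 genes of the NDC80 complex, the rod that couples kinetochores to microtubule ends, were higher than the adult control in every other library. For Ndc80 at 96 h this was not beyond counting error, at 2.97 times the adult control (95% interval 0.5315 to 30.1). Of the 4 genes, 1 was at least 4-fold higher at 24 h, 4 at 48 h, 1 at 96 h and 2 at P14. Spc25 was at 9.39 CPM in the adult control and, in time order, 35.2 (24 h), 74.0 (48 h) and 25.9 (96 h), with 45.1 at P14. Spc24, which pairs with Spc25 at the inner end of the rod, was at 11.4, 34.6, 65.5, 37.8 and 30.3 CPM in the same order. Of all members, Spc24 had the highest ratio of 96 h to 48 h, 0.577 (95% interval 0.520 to 0.640). The genes of the outer end were scarcer: Nuf2 was at 0.150 CPM in the adult control and, in time order, 9.17 (24 h), 18.6 (48 h) and 4.91 (96 h), with 4.18 at P14, and Ndc80 at 0.150, 1.08, 4.27, 0.447 and 1.47 CPM. Ndc80 had the lowest ratio of 96 h to 48 h of all members, 0.105 (0.0374 to 0.237), on 6 UMIs at 96 h. Both had 2 UMIs in the adult control, which gives Nuf2 a 48 h ratio of 124 with an interval of 34.0 to 1025.

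Among the spindle checkpoint genes, 2 of 5 were at least 4-fold higher than the adult control after 24 h, 4 after 48 h, 1 after 96 h and 2 on P14. Bub3, a checkpoint adaptor protein that also acts outside mitosis, was present in every library, at 30.9 CPM in the adult control and, in time order, 55.8 (24 h), 74.6 (48 h) and 39.8 (96 h), with 29.4 at P14. Its P14 and adult control intervals (28.1 to 30.8 and 28.0 to 34.1 CPM) overlapped, and its 48 h level was 2.41 times the adult control (2.16 to 2.70). Mad2l1, which encodes the checkpoint protein MAD2 that holds CDC20 back, was at 2.48, 22.0, 37.1, 20.6 and 11.6 CPM in the same order, and thus kept 0.556 of its 48 h level at 96 h (0.483 to 0.639). Ttk, the kinase MPS1 that starts checkpoint signalling, was at 0.0751, 9.69, 20.2, 3.27 and 4.29 CPM. It had 1 UMI in the adult control and 420 at 48 h, a ratio of 269 with an interval from 47.9 to 10629. Bub1 and Bub1b, at 8.45 and 10.5 CPM at 48 h, were 37.5 and 28.0 times the adult control on 3 and 5 control UMIs.

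The chromosomal passenger complex corrects faulty attachments and later acts at the midzone. All 4 of its genes were at least 4-fold higher than the adult control both after 24 h and after 48 h, 2 at 96 h and 3 at P14. Birc5, which encodes survivin, was at 3.53 CPM in the adult control and, in time order, 31.4 (24 h), 116 (48 h) and 45.2 (96 h), with 44.9 at P14. Cdca8 (borealin) was at 1.05, 15.1, 35.4, 8.78 and 7.39 CPM, and Aurkb, the kinase of the complex, at 0.451, 17.6, 31.3, 4.17 and 8.08 CPM. The partners of 1 complex thus differed at the later time: Birc5 at 96 h kept 0.388 of its 48 h level (95% interval 0.354 to 0.424), against 0.133 (0.0995 to 0.175) for Aurkb and 0.173 (0.121 to 0.241) for Incenp, the scaffold. The intervals of Birc5 and the other 2 did not overlap.

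All 6 spindle assembly genes were at least 4-fold higher than the adult control both after 24 h and after 48 h, 4 at 96 h and 5 at P14, and all 6 were also at least 2-fold higher at 48 h than at 24 h. Nusap1, which bundles spindle microtubules, was at 0.976 CPM in the adult control and, in time order, 21.2 (24 h), 62.9 (48 h) and 9.30 (96 h), with 12.7 at P14. Tpx2, the activator of Aurora A on the spindle, was at 0.601, 15.5, 53.4, 11.01 and 11.9 CPM, and Hmmr, a spindle pole protein, at 1.43, 17.1, 50.1, 14.8 and 9.68 CPM. The 48 h levels were 64.5 times (37.6 to 121), 88.9 times (44.9 to 206) and 35.1 times (22.4 to 58.5) the adult control. The kinases Aurka and Plk1 reached 41.2 and 33.6 CPM at 48 h. Plk1 had nearly the same level before and after that peak, 6.97 CPM at 24 h and 6.92 CPM at 96 h, whereas Aurka had 14.3 and 6.25 CPM.

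The APC/C and mitotic exit genes held both Ube2c, the member with the highest level at 48 h, and Ccnf, the one with the smallest difference from the adult control there. Ube2c, the ubiquitin-conjugating enzyme that works with the APC/C, was at 2.70 CPM in the adult control and, in time order, 51.5 (24 h), 188 (48 h) and 19.9 (96 h), with 39.8 at P14. Its 96 h level was 0.106 of that at 48 h (95% interval 0.0934 to 0.120), close to the ratios of Ndc80 and Aurkb. Cdca3, a trigger of entry into mitosis whose protein is itself an APC/C substrate, was at 3.38, 25.1, 146, 66.6 and 24.8 CPM in the same order and kept 0.455 of its 48 h level at 96 h (0.422 to 0.491). Ube2c and Cdca3 were both far above the other libraries at 48 h, but at 96 h Ube2c was below its own 24 h level and Cdca3 above. Cdc20, the APC/C activator on which the checkpoint acts, was at 1.43, 8.40, 73.2, 16.7 and 16.7 CPM, and its 24 h level was 0.115 of that at 48 h (0.0972 to 0.135), the lowest such ratio of the 40 members. Cks2, a small partner of cyclin-dependent kinases, was high throughout, at 39.2, 103, 128, 67.4 and 75.1 CPM, and its 48 h level was 3.26 times the adult control (2.97 to 3.59). Ccnf (cyclin F), the substrate receptor of an SCF ubiquitin ligase, was at 14.9, 17.3, 23.4, 11.2 and 8.78 CPM, so that it was lower than the adult control at 96 h and at P14. Its log2 ratio to the adult control was 0.61 at 48 h, -0.38 at 96 h and -0.71 at P14. Counted together, 2 of these 5 genes were at least 4-fold higher than the adult control at 24 h and 3 at each of 48 h, 96 h and P14.

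All 4 midzone and cytokinesis genes were at least 4-fold higher than the adult control at 24 h, 48 h and P14, and 3 were at 96 h. Prc1, which cross-links the antiparallel microtubules of the midzone, was at 1.13 CPM in the adult control and, in time order, 25.9 (24 h), 65.4 (48 h) and 10.6 (96 h), with 14.4 at P14. Ect2, the exchange factor that activates RhoA at the furrow, was at 1.20, 22.6, 46.1, 12.2 and 9.43 CPM, and Racgap1, the centralspindlin subunit that recruits ECT2, at 0.676, 13.3, 38.1, 10.6 and 8.42 CPM. The transcripts of the cytokinesis machinery were thus higher after hepatectomy in the same libraries as those of the spindle, with 48 h levels 58.1, 38.4 and 56.3 times the adult control. Anln (anillin), the scaffold of the contractile ring, was at 24.4 CPM at 48 h and 0.225 CPM, from 3 UMIs, in the adult control. RNA levels do not show whether these hepatocytes completed cytokinesis.

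The 2 chromosome structure genes were at least 4-fold higher than the adult control in all 4 other libraries. Mki67, the proliferation marker Ki-67 that coats mitotic chromosomes, was at 1.43 CPM in the adult control and, in time order, 46.7 (24 h), 120 (48 h) and 32.1 (96 h), with 51.1 at P14. Top2a, the topoisomerase that untangles sister chromatids and is made from S phase on, was at 1.73, 44.9, 80.9, 15.3 and 38.7 CPM. At 96 h Top2a was at 0.189 of its 48 h level (95% interval 0.162 to 0.218) and Mki67 at 0.268 (0.242 to 0.297).

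From 24 h to 48 h, 24 of 40 members were at least 2-fold higher, against 1.78% of genes tested, and the median log2 ratio was 1.18 over the members and -0.05 over all genes tested. The median ratio of 24 h to 48 h was 0.418 over all members. It was 0.274 over the APC/C and exit genes, 0.340 over the spindle assembly genes, and between 0.435 and 0.494 over the other roles. The APC/C and exit genes were split, from 0.115 for Cdc20 to 0.806 for Cks2, with Ccnf at 0.741. Cdc20 (0.115), Cdca3 (0.171) and Plk1 (0.207) were lowest at 24 h relative to 48 h, and Cenpq, Cenpk and Cenph were above their 48 h level, with Cenpn at 0.999 of it. From 48 h to 96 h all 40 members were lower, 33 of them at least 2-fold, against 4.33% of genes tested. The median log2 ratio was -1.80 over the members and 0.10 over all genes tested, and the median plain ratio of the members was 0.265. The lowest ratios were those of Ndc80, Ube2c and Aurkb, at 0.105, 0.106 and 0.133, and the highest those of Spc24 (0.577), Cenpm (0.559) and Mad2l1 (0.556). Of the 40 members, 34 were higher at 24 h than at 96 h and 6 were lower. P14 hepatocytes were below 48 h for all 40 members, with a median ratio of 0.320, from 0.170 for Cdca3 to 0.614 for Cenpm. Counts of members by direction alone, or by the library of the highest level, have no share over all genes tested beside them. Only the counts with a fold limit have that background.

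**Figure D2:**
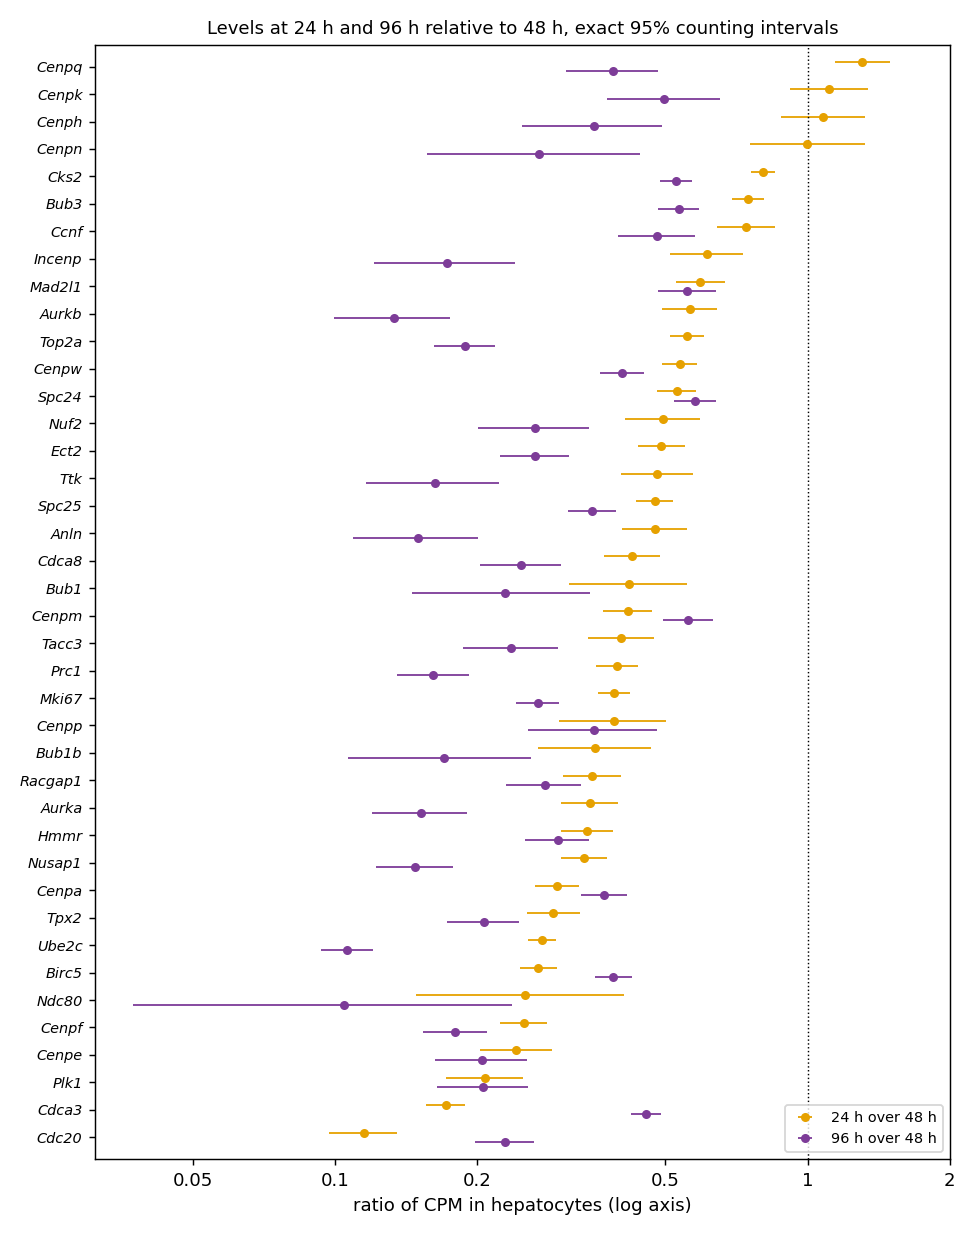
Ratio of each member's CPM at 24 h (orange) and at 96 h (purple) to that at 48 h in hepatocytes, on a log axis, with exact 95% counting intervals and members sorted by the ratio at 24 h. Cdc20 and Cdca3 stand lowest at 24 h, Cenph, Cenpk and Cenpq lie above 1 with Cenpn at 0.999, and every 96 h point lies below 1.

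The summed levels in hepatocytes rested on many barcodes, though less so in the adult control and at 96 h. The 3 barcodes with the most member UMIs held 11.06% of them in the adult control and 9.44% at 96 h. Elsewhere they held 2.76 to 3.94%. The counting intervals treat UMIs as independent. When each hepatocyte barcode was thinned at random to 5000 UMIs, 10 of 925 had UMIs of at least 3 different members in the adult control, or 1.08% (95% interval 0.520 to 1.98%). At 24 h it was 29.9% of 1170 barcodes (27.3 to 32.6%) and at 48 h, the highest share, 50.6% of 719 (46.9 to 54.3%). The later and younger libraries lay between, with 16.7% of 771 at 96 h (14.2 to 19.6%) and 18.04% of 2106 at P14 (16.4 to 19.8%). None of these barcodes was shallower than 5000 UMIs, and without thinning the shares were 23.7%, 68.2%, 88.0%, 55.1% and 82.8% at unequal depths. Of the barcodes with at least 3 members, 285 of 350 had 3 to 9 at 24 h, 170 of 364 at 48 h, 97 of 129 at 96 h and 234 of 380 at P14. Of all barcodes, 27.0% had 10 or more at 48 h, against 0.324 to 6.93% in the other libraries. Single members at this depth were found in up to 32.8% of barcodes at 48 h (Cks2), with Cdca3 in 32.7%, Ube2c in 28.2%, Birc5 in 26.4% and Mki67 in 26.3%. In the adult control Cks2 was found in 11.7% and Bub3 in 9.30%, while Cdca3 was found in 0.541% and Mki67 in 0.324%. Barcodes with at least 3 neutrophil markers that met neither the hepatocyte nor the endothelial rule served as a class that should mostly lack the members, although neutrophil precursors divide. Their shares at 5000 UMIs were 9.09% of 11 in the adult control, 10.3% of 117 at 24 h, 19.3% of 264 at 48 h, 0 of 17 at 96 h (95% interval up to 19.5%) and 17.9% of 39 at P14, at median depths of 6530 to 13208 UMIs and after leaving out 25 to 208 shallower barcodes per library. Kept to barcodes with under 1% of UMIs from Alb, Apoa1 and Ttr and under 10% mitochondrial UMIs, a choice made after seeing the data, the 184 barcodes left at 48 h gave 13.04% (8.54 to 18.8%), the 105 left at 24 h gave 10.5%, and the 32 left at P14 gave 18.8% (7.21 to 36.4%). At P14, at 96 h and in the adult control the intervals of hepatocytes and of this class overlapped. At 24 h and 48 h the hepatocyte share was above it beyond counting error.

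**Figure D3:**
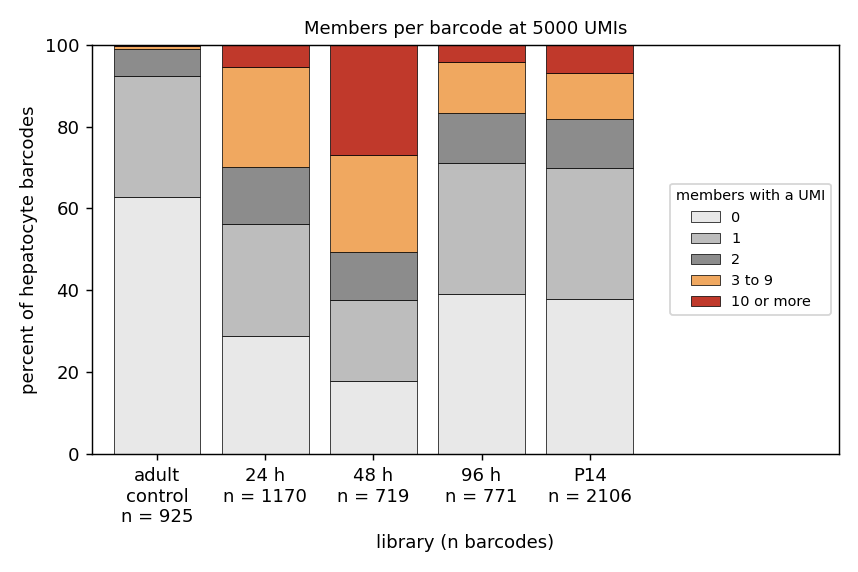
Percent of hepatocyte barcodes with 0, 1, 2, 3 to 9, or 10 or more of the 40 members, after thinning every barcode to 5000 UMIs. The adult control is almost all 0 to 2, and 48 h has the largest share with 10 or more, 27.0%.

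Within a library, the members were split by the phase genes that a hepatocyte carried. At 5000 UMIs a barcode was counted as replicating with at least 3 of 18 DNA replication genes, and as cyclin-positive with at least 2 of Ccna2, Ccnb1, Ccnb2 and Cdk1, none of them a member. At 24 h, 467 barcodes were replicating only, 36 were both and 11 were cyclin-positive only, and at 48 h the numbers were 132, 40 and 121. At P14 there were 164, 40 and 80, at 96 h 29, 9 and 22, and in the adult control 6, 1 and 2. The summed member level at 48 h was 1019 CPM in barcodes with neither, 1769 CPM in replicating barcodes, 3710 CPM with both and 4932 CPM in cyclin-positive barcodes. At P14 it was 328, 1613, 5002 and 4943 CPM in the same order. Members were thus highest in barcodes with cyclin genes, but those with neither held 411 CPM at 24 h and 1019 CPM at 48 h, against 149 CPM in the adult control, and thinned counts miss phase genes in some of them.

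The members did not all follow the cyclins. Of cyclin-positive over replicating barcodes, the median ratio over the 40 members was 2.29 at 48 h and 2.73 at P14, and in another random thinning, chosen after seeing the data, it was 2.15 and 2.20. Cdc20 stood at 232 against 29.9 CPM at 48 h, a ratio of 7.74 (95% interval 6.37 to 9.49), and at 199 against 30.7 CPM at P14, a ratio of 6.50 (5.40 to 7.86). Cenpf had ratios of 7.70 and 7.40, and Ube2c of 6.15 and 6.20. In the other thinning the 48 h ratios of these 3 genes were 6.12, 4.99 and 3.94, so that the size of the ratio depends on the draw beyond the counting interval. At the other end, Cenpk was at 11.9 CPM in cyclin-positive and 20.8 CPM in replicating barcodes at 48 h, a ratio of 0.571 (0.390 to 0.828), and Cenph at 10.9 and 18.7 CPM, a ratio of 0.583 (0.391 to 0.860). Their ratios in the other thinning were 0.528 and 0.745. Cenpn, at 0.792 (0.479 to 1.30), and Cenpp, at 0.9115 (0.636 to 1.31), were also below 1 at 48 h, with intervals that span 1. In the other thinning these 2 were at 0.981 and 1.08. At P14 Cenph was at 0.875 (0.577 to 1.30) and Cenpk at 1.35 (0.945 to 1.91), and in the other thinning at 0.599 and 0.894, so that the side of 1 on which Cenpk lay at P14 depends on the draw. The same held for Cenpn at P14, at 1.07 and, in the other thinning, 0.815. It also held for Ndc80 at P14, at 3.31 (1.82 to 6.17) and then 0.705, although its interval had lain clear of 1. At 96 h, with 22 cyclin-positive and 29 replicating barcodes, the median over the members was 1.66. Cenph and Cenpk were there both at 0.263 (0.0774 to 0.716), and Aurkb at 0.132 (0.0256 to 0.434) and Top2a at 0.247 (0.146 to 0.399) were lower in cyclin-positive barcodes too. The other thinning left 19 cyclin-positive barcodes at 96 h, under the minimum of 20, and gave 0.191 for Cenph, 0.541 for Cenpk, 0.721 for Aurkb and 0.514 for Top2a, so that the size of these 96 h ratios depends on the draw. Cenpq, highest at 24 h as well, was at 1.45 (1.11 to 1.89) at 48 h. The ratios by time and by class both use the 48 h library.

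**Figure D4:**
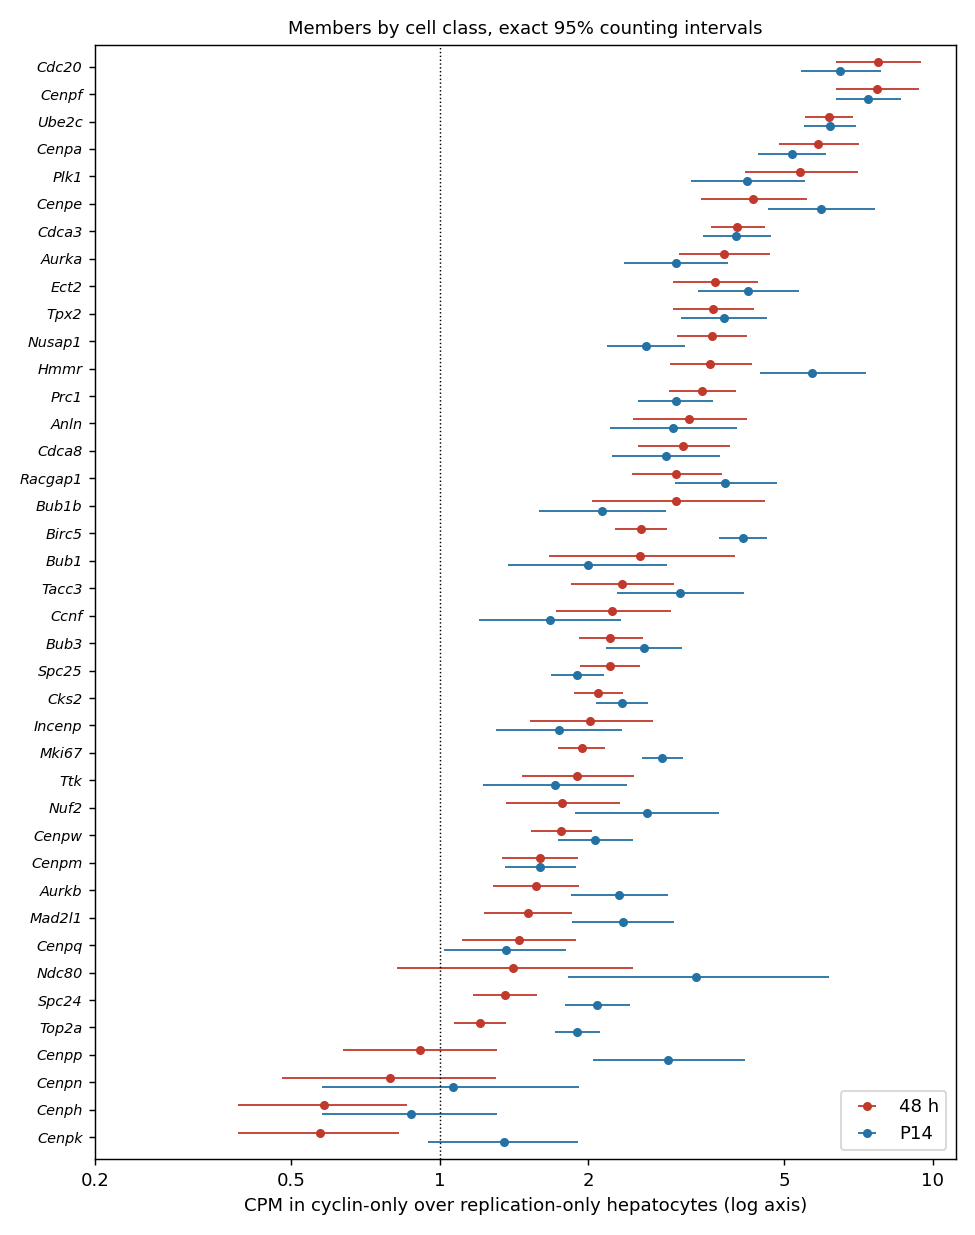
Ratio of each member's CPM in cyclin-positive only over replicating only hepatocyte barcodes, at 48 h (red) and P14 (blue), on a log axis, with exact 95% counting intervals and members sorted by the 48 h ratio. Cdc20, Cenpf and Ube2c lie above 6 in this thinning. Cenph and Cenpk lie below 1 at 48 h, as do Cenpn and Cenpp with intervals that span 1.

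In endothelial cells, the lining of the liver vessels, the members had another course. Endothelial barcodes had at least 3 of the 7 markers Stab2, Ptprb, Gpr182, Kdr, Egfl7, Clec4g and Oit3, no UMI of the leukocyte gene Ptprc, at least 1000 UMIs, and did not meet the hepatocyte rule. There were 78 in the adult control and, in time order, 169 (24 h), 63 (48 h) and 107 (96 h), with 43 at P14, at median depths of 1804 to 2911 UMIs. Their summed member level was 221 CPM in the adult control (95% interval 164 to 290), 441 CPM at 24 h (382 to 506), 1521 CPM at 48 h (1381 to 1672), 1537 CPM at 96 h (1411 to 1671) and 3823 CPM at P14 (3622 to 4032). From 48 h to 96 h the endothelial sum thus stayed level, at a ratio of 1.01 (0.889 to 1.15), where that of hepatocytes was 0.311 (0.304 to 0.318).

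At P14, 48 h and 96 h these endothelial sums rested on few barcodes. At P14, 3 of the 43 barcodes held 459, 374 and 369 member UMIs, or 1202 of 1356 (88.6%). At 48 h 1 barcode held 234 of 432 (54.2%), and at 96 h the top 3 held 254 of 548 (46.4%). In hepatocytes the top 3 held 2.76% at P14, 2.90% at 48 h and 9.44% at 96 h. The endothelial top 3 held 11.4% at 24 h and 27.45% in the adult control. Without the 1 barcode with the most member UMIs, an alternative chosen after seeing the data, the sum was 739 CPM at 48 h, 1242 CPM at 96 h and 2727 CPM at P14. The 96 h level then stood above the 48 h level instead of beside it. It also did with at least 4 endothelial markers (1334 CPM at 48 h and 1787 CPM at 96 h) and with free RNA subtracted (1519.5 and 1860 CPM). At P14, leaving out 1 barcode keeps the next ones, with 374 and 369 member UMIs. The P14 level without all 3 was not computed. Erythroid markers were also high in the endothelial barcodes at 48 h, with 26527 CPM for 6 markers against 311 to 532 CPM in the other libraries, and 6 of the 63 barcodes had at least 3 of them. Without those 6 barcodes, which held 68 of the member UMIs, the sum at 48 h was 1488 CPM. Macrophage markers summed to 525.6 CPM at 24 h and 496.6 CPM at 48 h, against 62.0 to 78.5 CPM elsewhere. Neutrophil markers summed to 159 and 194 CPM at these times, against 0 to 16.9 CPM elsewhere. The part of these 2 cell types was not tested. The 6 hepatocyte markers summed to 5420 CPM (48 h) to 32446 CPM (96 h) in endothelial barcodes. An alternative that kept barcodes with under 5% of UMIs from Alb, Apoa1 and Ttr gave higher sums at 96 h and at P14. Its values are in the closing section. Beyond that, the part of hepatocyte RNA in the result was not tested. At 24 h and in the adult control an endothelial barcode held 1.20 and 0.654 member UMIs on average, where a near-empty droplet held 0.542 and 0.207. Counting all genes, such a droplet held 669.7 UMIs at 24 h and 1328.5 in the adult control. The latter is above the endothelial minimum of 1000 UMIs. The median endothelial barcode held 1854 and 1803.5 UMIs, so that free RNA can make up much of all UMIs of an adult control barcode. Members stood at 817 CPM in free RNA at 24 h and at 157 CPM in that of the adult control. With free RNA subtracted, the endothelial sum fell from 441 to 351.5 CPM at 24 h. In the adult control it rose from 221 to 286.5 CPM, so that these 2 libraries then lay closer together. Thinned to 1000 UMIs, 15 of 107 barcodes at 96 h (14.02%, 8.06 to 22.1%), 7 of 63 at 48 h (11.1%, 4.59 to 21.6%) and 7 of 43 at P14 (16.3%, 6.81 to 30.7%) had at least 3 members, with overlapping intervals, against 1 of 169 at 24 h (0.592%) and 0 of 78 in the adult control (interval up to 4.62%). At their full, unequal depths these libraries had shares of 22.4%, 25.4%, 37.2%, 5.92% and 6.41% in that order.

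Gene by gene, 37 of the 40 members were highest at P14 among the endothelial libraries, but for only 13 of them, Birc5, Mki67 and Top2a included, did the P14 interval lie clear of the next library, and the 3 barcodes named above hold most of these UMIs. The members are thus not separate observations. The share of all genes highest at P14 in endothelial barcodes is not given, so that the count of 37 has no background. Mki67 was listed with 0 UMIs in the adult control and stood at 4.36 CPM at 24 h, 123 CPM at 48 h, 118 CPM at 96 h and 344 CPM at P14. Ube2c was at 4.32, 17.5, 106, 84.1 and 248 CPM in the same order, and Top2a at 0, 4.36, 95.1, 92.5 and 290 CPM. These 3 genes were at 17.5 CPM or less at 24 h in endothelial barcodes, where hepatocytes already had 44.9 to 51.5 CPM of them. In the adult control 21 members had 0 UMIs, at 24 h 11 had, and at 48 h Cenpp and Ttk had. The members highest in hepatocytes at 24 h could not be ordered in endothelial barcodes, because Cenph, Cenpk and Cenpq had between 1 and 9 UMIs per library.

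**Figure D5:**
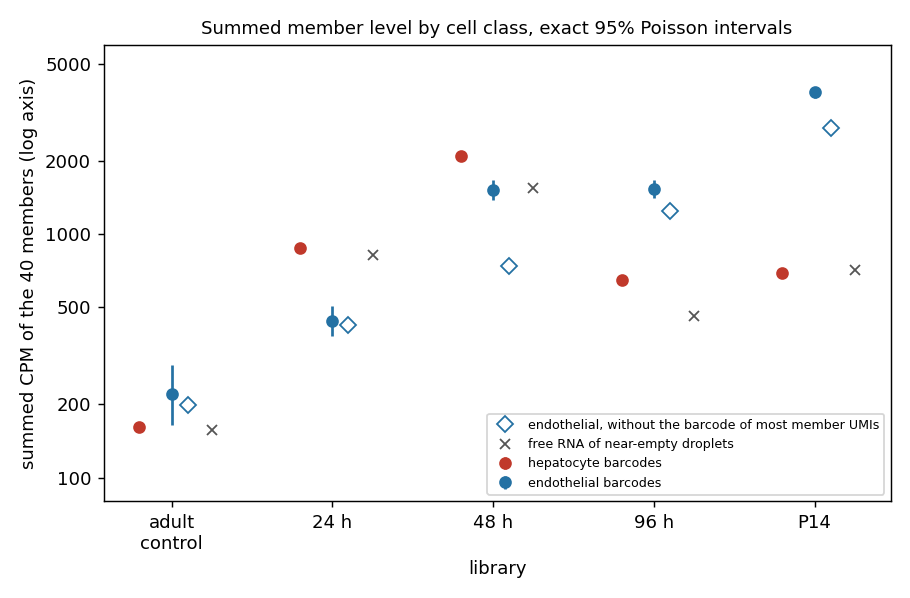
Summed CPM of the 40 members per library on a log axis in hepatocyte barcodes (red), endothelial barcodes (blue; open diamonds without the 1 barcode with the most member UMIs) and free RNA of near-empty droplets (crosses), with exact 95% Poisson intervals. The hepatocyte sum is lower at 96 h than at 48 h, and the endothelial sum is level between these times with all barcodes kept. P14 is the highest endothelial library, but 3 of its 43 barcodes hold 88.6% of the member UMIs. The open diamond leaves out only 1 of these 3.

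Other genes of mitosis, 74 in 4 lists, were counted in the same way. Over all genes tested, the shares at least 4-fold higher were again 2.40% at 24 h, 2.64% at 48 h, 0.830% at 96 h and 2.66% at P14. The APC/C subunits and partners differed least from the adult control, with 1 of 17 at least 4-fold higher at 24 h, 2 at 48 h and 0 at 96 h and at P14, and a median log2 ratio of 0.54 at 48 h. The 2 at 48 h were Ube2s, which extends ubiquitin chains on APC/C substrates (26.6 CPM in the adult control and 177 CPM at 48 h), and Fbxo5, the APC/C inhibitor EMI1 (0.225 and 5.18 CPM). Anapc2, the cullin subunit, was at 17.9 and 15.0 CPM. Other kinetochore genes were at least 4-fold higher for 11 of 25 at 24 h, 12 at 48 h, 3 at 96 h and 3 at P14. Knstrn, a kinetochore microtubule adaptor, was at 0.976 CPM in the control and 54.3 CPM at 48 h, whereas Zwint was at 52.8 and 61.6 CPM. Condensin and separation genes gave 9 of 14 at 24 h, 10 at 48 h, 1 at 96 h and 3 at P14, led at 48 h by the condensin genes Smc2 (3.15 and 67.9 CPM) and Ncapg2 (0.751 and 24.9 CPM), with Pttg1 (securin) at 17.1 and 24.96 CPM. Other spindle and cytokinesis genes gave 8 of 18 at 24 h, 12 at 48 h, 5 at 96 h and 6 at P14, led by Ckap2 (0.376 and 39.9 CPM) and Arhgap11a (0.376 and 32.0 CPM), with Haus4, an augmin subunit, at 13.5 and 20.1 CPM. The members, at 35 of 40 at 48 h, were chosen with such results known, so that no difference from these lists is drawn.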

How the data were processed

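Droplet-based single-cell RNA counts of 5 mouse liver libraries, 1 per group, were used as the authors deposited them, as whole UMI counts per gene and barcode with no further normalization. Per the submitters' processing notes, bcl2fastq 2.17.1.14, Cell Ranger, Seurat 3.1 and mm10 were involved, and the header of each matrix names software version 3.0.2, per the file headers. The matrices still hold near-empty droplets, with 80927744 to 136110607 UMIs per library. Barcodes were classed by marker genes and UMI minimums, UMIs were summed per library and class, and levels are CPM outside the mitochondrial genes. With 1 library per group no test was run: intervals are exact (Poisson, Clopper-Pearson, or conditional binomial for ratios), and a gene was counted at 4-fold against the adult control, or 2-fold between 24 h, 48 h and 96 h, after adding 1 CPM. Shares and phase classes used 1 random thinning to 5000 UMIs. Doublets were kept, and Scrublet (scanpy 1.11.5) was an alternative, as was TMM scaling (edgeR 4.0.16, R 4.3.3). The computation was checked on simulated counts. The members and all lists were chosen with earlier results of these data known. Genes are named by role: in each role the 3 with the highest CPM in any library, members at 10 CPM or more in the adult control, members not highest at 48 h, and the 3 highest and lowest ratios of 96 h to 48 h, and in each other list the 2 highest and the lowest ratios at 48 h. One gene that this rule names is not reported here. A few further members are named beside them to complete a complex, and were chosen after their values were seen.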

Additional observations from a re-analysis of the deposited data

Results flagged for a closer look

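Birc5 went in opposite directions in the 2 cell classes between 48 h and 96 h. Its ratio of 96 h to 48 h was 0.3879 in hepatocytes and 2.02 in endothelial barcodes (95% interval 1.04 to 4.18). The endothelial value rests on 13 UMIs at 48 h and 33 at 96 h, and the difference between the classes was not tested. The interval treats UMIs as independent, whereas 1 endothelial barcode held 54.2% of all member UMIs at 48 h and 3 held 46.4% at 96 h. Of the 40 members, 18 had an endothelial ratio above 1 and 22 below 1, while all 40 were below 1 in hepatocytes. Birc5 was the 1 member whose intervals lay on opposite sides of equality in the 2 classes. It is singled out among 40 members by that interval, which is therefore no separate support for it. No group had the 4 libraries that a search for outlying samples needs.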

How the results depend on the processing

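Of the 179 alternative values of counts, medians, shares and summed levels, 134 stayed near the value reported and 45 moved. Such values have no sign that could turn, but the order or the spacing of libraries changed in some. Without thinning the hepatocyte share at P14 lay above that at 24 h. Without the barcode with the most member UMIs the endothelial sum at 96 h lay well above that at 48 h, whereas they were level with all barcodes kept. The number of members highest at 48 h was 36 to 38 throughout, with no share over all genes tested given for it. With 10 CPM added in place of 1, the members at least 4-fold higher numbered 3 at 24 h, 21 at 48 h, 2 at 96 h and 3 at P14 (54, 79, 11 and 82 of 10959 genes tested), because a larger constant compresses the ratios of low genes. In barcodes with 10 to 20% mitochondrial UMIs the count at 96 h was 7 (1.51% of genes), and the share with 3 members was 64.7% at 48 h and 13.2% at 96 h (the cause was not tested; 53 barcodes were left at 96 h). With no filter on low genes the background was 1.48%, 1.64%, 0.512% and 1.74% at 24 h, 48 h, 96 h and P14. The share of hepatocyte barcodes moved with its definition. In the order adult control, 24 h, 48 h, 96 h and P14, it was 7.57%, 43.8%, 62.3%, 28.9% and 30.3% for 2 members, 0.432%, 16.1%, 41.7%, 9.73% and 11.6% for 5 members, and 23.7%, 68.2%, 88.0%, 55.1% and 82.8% without thinning. Thinned to 3000 UMIs outside the mitochondrial genes it was 24.3% at 24 h, 13.9% at 96 h and 15.6% at P14. With Alb, Apoa1 and Ttr at 5% or more it was 2.13% in the adult control and 10.6% at 96 h, and that rule left under 20 barcodes at 24 h and 48 h, which gave no value. The summed endothelial level was 372.9 CPM at 24 h with at least 2000 UMIs. With 4 markers it was 373.4 CPM at 24 h, 1334 CPM at 48 h, 1787 CPM at 96 h and 4743 CPM at P14. With Alb, Apoa1 and Ttr under 5% it was 1696 CPM at 96 h and 4055 CPM at P14, with under 30% mitochondrial UMIs 1807 CPM at 96 h, and with free RNA subtracted 351.5 CPM at 24 h and 1860 CPM at 96 h. Chosen after seeing the data, leaving out barcodes with 3 erythroid markers gave 4434 CPM at P14, and leaving out the 1 barcode with the most member UMIs gave 738.8 CPM at 48 h, 1242 CPM at 96 h and 2727 CPM at P14. Of 572 alternative values of single members, 509 stayed near the value reported. TMM scaling moved the median of all genes at P14 from -0.22 to 0.09 (log2) and gave 29, 35, 20 and 28 members at least 4-fold higher at 24 h, 48 h, 96 h and P14, against 2.45%, 2.76%, 0.803% and 3.52% of genes. No paired analysis was possible because each group had 1 library.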
